A study of Homo sapiens with 4 samples.

Results

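The transcriptional repressor REST, its CoREST partners RCOR1, RCOR2 and RCOR3, the small CTD phosphatases CTDSP1, CTDSP2 and CTDSPL, and the cofactors KDM1A, SIN3A and EHMT2 were followed in 293T cells that had received a microRNA mimic. These 10 genes were taken by name, as genes of neuronal gene repression. Their values were not used for this, but earlier results of these data were known when they were chosen. All 10 were among the 58243 genes of the 4 expression profiles, and all 10 were among the 12633 genes with at least 200 reads over the 4 libraries, which are called the tested genes here. 293T cells are an established human line derived from embryonic kidney. A mimic is made by synthesis, as a duplex in which 1 strand has the sequence of a mature miRNA. The cells received a negative control RNA or the mimic of miR-124, miR-122 or miR-1, and the labels place the RNA at 48 h of transfection, while the study's methods give an earlier time. RNA-seq was done on 1 library for each of the 4 conditions, so no difference between conditions has a replicate check, and each interval given with a ratio is a 95% Clopper-Pearson interval that covers counting error only and compares 2 libraries.

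REST is a zinc finger protein that binds a DNA element, known as RE1, at neuronal genes and keeps those genes silent in cells that are not neurons. It recruits CoREST proteins, which carry the histone demethylase KDM1A, at its C-terminal end and the SIN3A corepressor at its N-terminal end, and it also brings in the histone H3 lysine 9 methyltransferase EHMT2. The small CTD phosphatases remove phosphate groups from the tail of RNA polymerase II and from REST itself, and CTDSP1 is a long-known target of miR-124, the most abundant miRNA of the brain. MiR-1 is known from muscle and heart and miR-122 from liver.

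A miRNA pairs with its targets mostly through its seed, bases 2 to 8 from the 5′ end. The mature sequences of 2 of the 3 miRNAs are shown from RefSeq on GRCh38.p14 because their seeds define the sites searched for, with the seed in capitals.
hsa-miR-1-3p: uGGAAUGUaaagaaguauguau
hsa-miR-122-5p: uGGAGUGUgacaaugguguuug
Both are 22 bases long. MiR-1 comes from MIR1-2 at chr18:21829015-21829036 on the minus strand and from MIR1-1 at chr20:62554351-62554372 on the plus strand, and miR-122 comes from MIR122 at chr18:58451088-58451109 on the plus strand. The 8 letters of a full site are GTGCCTTA for miR-124, ACACTCCA for miR-122 and ACATTCCA for miR-1, and sites were searched as these or as either 7 letters of them, on the sense strand of the longest annotated 3′ UTR.

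Most miR-124 sites in the 10 genes lay in the phosphatases. CTDSP1 (ENSG00000144579, chr2:218397136-218405941, plus strand) had 5 sites of 7 letters in a 3′ UTR of 1516 bases. They lie in the last exon on the plus strand of GRCh38, at chr2:218404617-218404639, chr2:218404806-218404828, chr2:218405080-218405102, chr2:218405499-218405521 and chr2:218405865-218405887. They are shown 5′ to 3′ because CTDSP1 held the most sites of the 10 genes, with the letters that match the site in capitals.
CTDSP1 site 207 bases into the 3′ UTR: ccaggccccgtgtcaGTGCCTTc
CTDSP1 site 396 bases in: aacggtggacatcaaGTGCCTTg
CTDSP1 site 671 bases in: aatgacctcagacttcTGCCTTA
CTDSP1 site 1089 bases in: gcccatccttcaccgGTGCCTTt
CTDSP1 site 1455 bases in: ggccttcccatttaaGTGCCTTc
None of the 5 was the full 8-letter site. CTDSPL had 3 sites for miR-124 in 3602 bases, CTDSP2 had 2 in 3675 bases, and RCOR1 had 2 in 4055 bases. The 3′ UTRs of RCOR2, RCOR3, SIN3A, EHMT2, KDM1A and REST had no miR-124 site of 7 letters, although that of REST held 2 of the shorter 6-letter matches in 6013 bases.

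MiR-122 and miR-1 had sites in fewer of the 10 genes than miR-124. The only full 8-letter site for any of the 3 miRNAs was that of miR-122 in CTDSPL (ENSG00000144677, chr3:37861880-37984469, plus strand), 2357 bases into its 3′ UTR, at chr3:37983209-37983231. The only miR-1 site was in EHMT2 (ENSG00000204371, chr6:31879759-31897698, minus strand), at chr6:31879954-31879976 on the minus strand. Both are shown because each is the strongest match of its miRNA among these genes.
CTDSPL site for miR-122: gcaccttatttgaccACACTCCA
EHMT2 site for miR-1: ccaccaccctttcacACATTCCt
KDM1A had a 7-letter miR-122 site in its longest 3′ UTR and none in that of its canonical transcript. In all, 4 of the 10 genes had a miR-124 site of 7 letters or more, 2 a miR-122 site and 1 a miR-1 site. Among the 11194 tested genes with an annotated 3′ UTR, the shares with such a site were 28.0% for miR-124, 26.4% for miR-122 and 25% for miR-1. A full 8-letter site was in 3.89% of them for miR-124, 3.68% for miR-122 and 5.99% for miR-1.

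The values are FPKM, and the reads behind them were recovered as whole multiples of what 1 read is worth in each library. The values had been divided by 6624306 reads in the control RNA library, 5887055 in that of miR-122, 6465436 in that of miR-124 and 9452232 in that of miR-1, so that counting error was smallest in the miR-1 library and largest in the miR-122 library. The FPKM lengths of most genes were those of the whole gene with introns, and levels are therefore compared between genes only as RPKM of the canonical transcript, computed from the recovered reads and the length of that transcript. Of 9 genes fixed as markers of the 293T lineage, 5 reached 1 FPKM in at least 1 library. The 9 together summed to between 186 and 214 FPKM in each library. Most of the sum with the control RNA was KRT18 at 97.5 FPKM, VIM at 58.0 and KRT8 at 26.5. PAX2, EYA1, SALL1 and CDH2 were below 1 FPKM in every library. The sums over 7 markers each were 0.0660 to 0.0964 FPKM for neurons, 0.0892 to 0.549 FPKM for hepatocytes and 2.28 to 3.16 FPKM for muscle. The neuronal STMN2, the hepatocyte FGB and the muscle MYL2 were at 0 in all 4 libraries. The muscle markers MYOD1 and DES reached 1 FPKM in at least 1 library, and no neuronal or hepatocyte marker did. The markers above 0 were named after their values were seen. Sums of FPKM depend on the gene lengths used, so they serve to compare libraries and not lists. Tested genes with an 8-letter site for the transfected mimic had a median ratio to the control RNA of 0.837 for miR-1, 0.903 for miR-122 and 0.886 with the miR-124 mimic. Genes without a match of even 6 letters were at 1.00, 0.998 and 1.01. With a trend with gene features subtracted, the median log2 ratios of the genes with an 8-letter site were −0.09, −0.09 and −0.03. Those of the genes without such a 6-letter match were 0.03, 0.01 and 0.00.

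Per transcript length, KDM1A was the most abundant of the 10 mRNAs, with a mean of 57.1 RPKM over the 4 libraries. EHMT2 followed at 36.8, CTDSP1 at 33.1 and CTDSP2 at 31.7 on the same scale, and the ranges of these 3 overlapped from neighbour to neighbour. SIN3A stood alone at 10.8, below CTDSP2 and above RCOR2 in every library. The lowest 5 were RCOR2 at 6.72, RCOR1 at 5.75, REST at 5.41, CTDSPL at 4.88 and RCOR3 at 4.12, and each of them overlapped its neighbour in this order. REST mRNA was thus present in these cells at a level about that of RCOR1, and the widest spread over the 4 libraries, as a fold, was that of RCOR2, from 4.97 to 9.50.

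**Figure D1:**
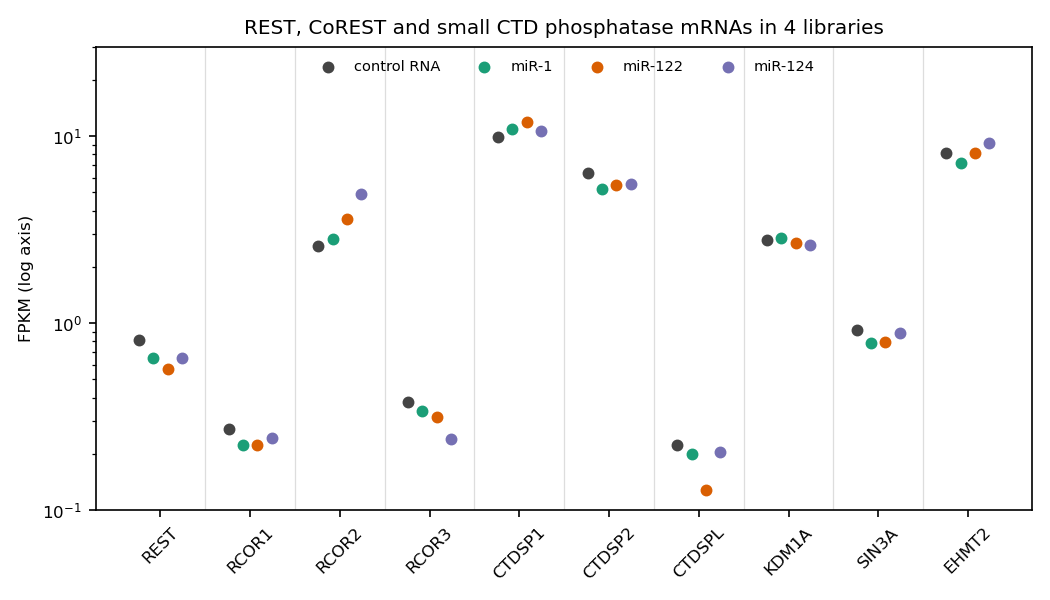
FPKM (log axis) of the 10 genes, with 1 point for each library. RCOR2 is at 2.58 FPKM with the control RNA and at 4.92 with miR-124, CTDSPL is lowest with miR-122 at 0.128, and the 4 points of KDM1A lie between 2.63 and 2.87.

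REST itself was lower in every mimic library than with the control RNA. REST (ENSG00000084093, chr4:56907876-56966808, plus strand) was at 0.816 FPKM with the control RNA, 0.651 with miR-1, 0.566 with miR-122 and 0.655 in the miR-124 library, from 318, 362, 196 and 249 reads. The control RNA library was the highest of the 4, and the 3 mimic libraries lay close together. The ratio to the control RNA was 0.798 (0.684 to 0.930) for miR-1, 0.694 (0.577 to 0.831) for miR-122 and 0.802 (0.677 to 0.95) for miR-124, so that each interval was below 1. Between mimics, miR-122 against miR-124 gave 0.864 (0.713 to 1.05) and miR-124 against miR-1 gave 1.01 (0.852 to 1.18), and both intervals held 1. The miR-122 ratio of REST was lower than that of all but 3.50% of the tested genes, whereas 18% lay below its miR-1 ratio and 16.6% below its miR-124 ratio. In such bulk samples, fewer cells of a kind and less RNA per cell cannot be told apart. REST shares 3459 bases with NOA1 on the opposite strand, and over the 4 libraries NOA1 had 1186 reads and REST 1125. The strand setting of the counting is not given in the sources used here, so reads of the 2 genes in the shared stretch cannot be told apart.

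A ratio of at most 0.8 is called lower here and a ratio of at least the inverse of 0.8 higher. With miR-1, 1 of the 10 genes was lower, REST, which lay just inside the limit at 0.798, and none was higher. Among all 12632 genes compared, 18.3% were lower and 7.43% higher with miR-1. With miR-122, REST and CTDSPL were lower and RCOR2 was higher, against 12.3% lower and 7.9% higher among 12633 genes. With miR-124, RCOR3 was lower and RCOR2 higher, against 16.3% lower and 10.3% higher among 12632 genes, and REST at 0.802 lay just outside the limit. The counts of 1, 2 and 1 lower genes of 10 and of 0, 1 and 1 higher genes of 10 were each within about 1 gene of those shares.

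The median of the 10 genes was slightly below that of all tested genes with each mimic, and with miR-1 and miR-124 it was near 0 once a trend with gene features had been subtracted. Before that subtraction, 7 of the 10 with each of the 3 mimics had a ratio below 1, compared with 57.0% of all tested genes for miR-1, 53.6% for miR-122 and 56.4% with the miR-124 mimic. Their median log2 ratio was −0.16 with miR-1, where that of all tested genes was −0.05. It was −0.21 with miR-122 beside −0.02 for all tested genes, and −0.11 with miR-124 beside −0.05. With the trend subtracted, their median was 0.00 with miR-1, −0.11 with miR-122 and −0.01 in the miR-124 library. The control RNA library had the highest value of the 4 for 6 of the 10 genes, REST, RCOR1, RCOR3, CTDSP2, CTDSPL and SIN3A, and for 33.9% of the tested genes. All 3 comparisons share the control RNA library, so a high or low count in it moves all of a gene's ratios together.

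**Figure D2:**
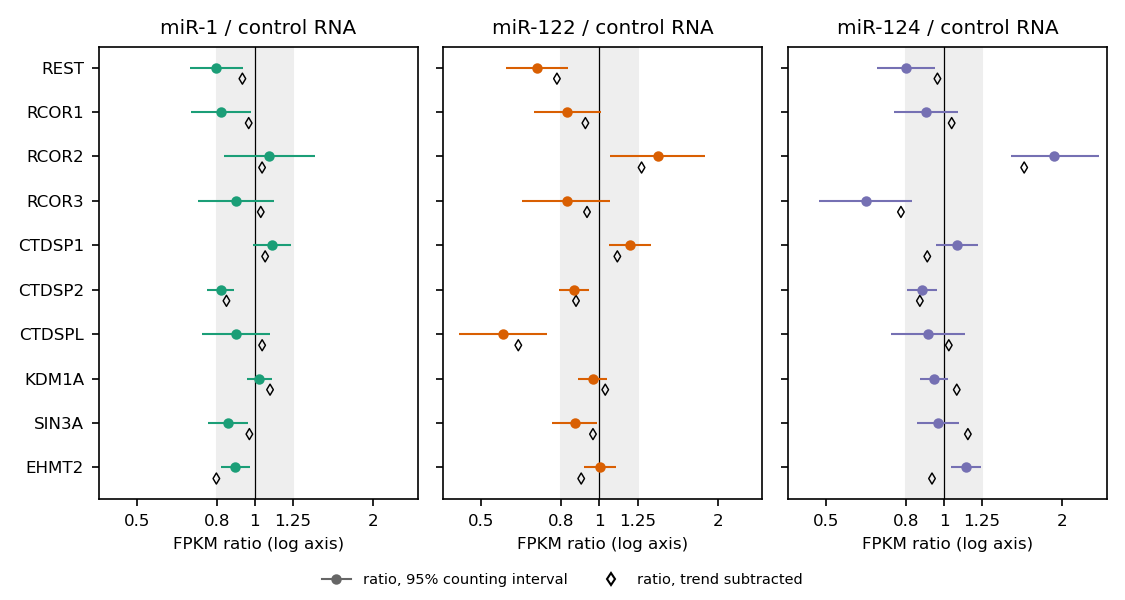
Ratio of each mimic library to the control RNA library for the 10 genes (log axis). Filled points with bars are the FPKM ratio and its 95% counting interval, open diamonds the ratio after a trend with 3′ UTR and gene features was subtracted, and the grey band spans 0.8 to its inverse. RCOR2 with miR-124 is the point farthest above the band and CTDSPL with miR-122 the one farthest below it.

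The 3 CoREST genes parted with miR-124. CoREST proteins hold KDM1A on nucleosomes and link it to histone deacetylases. RCOR2 (ENSG00000167771, chr11:63911230-63917164, minus strand), the CoREST protein best known from embryonic stem cells and the developing brain, was at 2.58 FPKM with the control RNA, 2.80 with miR-1, 3.63 with miR-122 and 4.92 in the miR-124 library. These came from 96, 149, 120 and 179 reads, and the control RNA library was the lowest. The ratio was 1.09 (0.836 to 1.42) for miR-1, 1.41 (1.07 to 1.86) for miR-122 and 1.91 (1.48 to 2.47) for miR-124. Of all tested genes, 99.8% had a lower miR-124 ratio than RCOR2. The miR-124 library was also above the other mimic libraries, by 1.36 (1.07 to 1.73) against miR-122 and by 1.76 (1.41 to 2.20) against miR-1.

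RCOR3 differed from the control RNA in the other direction. RCOR3 (ENSG00000117625, chr1:211258377-211316385, plus strand) was at 0.380 FPKM with the control RNA, 0.339 with miR-1, 0.313 with miR-122 and 0.240 in the miR-124 library, from 146, 186, 107 and 90 reads. The miR-124 library was the lowest of the 4. The ratio was 0.893 (0.715 to 1.12) for miR-1, 0.825 (0.637 to 1.07) for miR-122 and 0.632 (0.480 to 0.827) for miR-124, and 1.53% of the tested genes had a lower miR-124 ratio. Against miR-1 the miR-124 library gave 0.707 (0.544 to 0.915), and against miR-122 it gave 0.766 (0.572 to 1.02), an interval that held 1. Neither RCOR2 nor RCOR3 has a miR-124 site of 6 or more letters in its longest 3′ UTR.

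RCOR1, the first CoREST protein found with REST, has 2 miR-124 sites and differed little with miR-124. RCOR1 (ENSG00000089902, chr14:102592649-102730561, plus strand) was at 0.270 FPKM with the control RNA, 0.222 with miR-1, 0.224 with miR-122 and 0.243 in the miR-124 library, from 247, 289, 182 and 217 reads. The 3 mimic libraries were all below the control RNA, and the miR-124 library was the nearest to it. The ratio was 0.820 (0.690 to 0.976) for miR-1, 0.829 (0.681 to 1.01) for miR-122 and 0.900 (0.747 to 1.08) for miR-124. Its 2 sites for miR-124 are at chr14:102726641-102726663 and chr14:102727339-102727361 on the plus strand, and they are shown beside this value since RCOR1 is the only corepressor gene of the 10 with such sites.
RCOR1 site 151 bases into the 3′ UTR: agtcctgtgctccatcTGCCTTA
RCOR1 site 848 bases in: gtaaatttggaattgGTGCCTTc

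CTDSP1 mRNA, with its 5 miR-124 sites, was not lower with miR-124 than with the control RNA. It was at 9.92 FPKM with the control RNA, 11.0 with miR-1, 11.9 with miR-122 and 10.7 in the miR-124 library, from 505, 796, 538 and 532 reads. The control RNA library was the lowest and the miR-122 library the highest. The miR-124 ratio was 1.08 (0.954 to 1.22), that of miR-1 was 1.10 (0.987 to 1.24) and that of miR-122 was 1.2 (1.06 to 1.36). Directly between mimics, miR-124 against miR-122 gave 0.900 (0.797 to 1.02) and against miR-1 gave 0.977 (0.874 to 1.09), and both intervals held 1. At this depth, a ratio below 0.954 between the miR-124 and control RNA libraries lies outside the counting interval. The 16 tested genes with at least 5 miR-124 sites had a median miR-124 ratio of 0.858. The 5151 genes without a miR-124 match of even 6 letters had one of 1.01. With the trend subtracted, their median log2 ratios were 0.04 and 0.00. Each CTDSP gene carries a miR-26 gene within it, MIR26B in CTDSP1, MIR26A2 in CTDSP2 and MIR26A1 in CTDSPL, and CTDSP1 also shares 477 bases with an antisense long noncoding RNA that had 52 reads.

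CTDSP2 was lower than the control RNA by a similar amount with each mimic. CTDSP2 (ENSG00000175215, chr12:57819927-57846729, minus strand) was at 6.36 FPKM with the control RNA, 5.20 with miR-1, 5.48 with miR-122 and 5.58 in the miR-124 library, from 1129, 1318, 865 and 968 reads. The 3 mimic libraries lay within 5.20 to 5.58 and the control RNA stood above them. The ratio was 0.818 (0.755 to 0.887) for miR-1, 0.862 (0.788 to 0.943) for miR-122 and 0.878 (0.805 to 0.958) for miR-124, all short of the limit of 0.8. Its 2 miR-124 sites, at chr12:57823543-57823565 and chr12:57822158-57822180 on the minus strand, went with a miR-124 ratio that was the nearest of the 3 to 1. That order did not hold with a trend with gene features subtracted, where the ratios were 0.868 for miR-124, 0.872 for miR-122 and 0.846 for miR-1.

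CTDSPL was lower with miR-122 than in any other library. This phosphatase gene, also known as a tumour suppressor candidate of chromosome 3, was at 0.224 FPKM with the control RNA, 0.200 with miR-1, 0.128 with miR-122 and 0.205 in the miR-124 library, from 182, 232, 92 and 162 reads. The miR-122 library stood apart below the other 3, which were within 0.200 to 0.224. The miR-122 ratio was 0.569 (0.438 to 0.735), and 0.475% of the tested genes had a lower one. The ratio was 0.893 (0.733 to 1.09) for miR-1 and 0.912 (0.733 to 1.13) for miR-124, despite 3 sites for miR-124. Against the other mimics, the miR-122 library gave 0.637 (0.495 to 0.814) relative to miR-1 and 0.624 (0.478 to 0.810) relative to miR-124. CTDSPL is the gene that holds the 8-letter miR-122 site shown above, and the 412 tested genes with such a site had a median miR-122 ratio of 0.903.

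KDM1A and SIN3A differed least of the 10 genes between the libraries, by 1.09-fold and 1.17-fold from the lowest to the highest. KDM1A (ENSG00000004487, chr1:23019443-23083689, plus strand), which removes methyl groups from lysine 4 of histone H3, was at 2.79 FPKM with the control RNA, 2.87 with miR-1, 2.68 with miR-122 and 2.63 in the miR-124 library. From 1187, 1740, 1015 and 1091 reads, its ratios were 1.03 (0.954 to 1.11), 0.962 (0.884 to 1.05) and 0.942 (0.867 to 1.02) in the same order of mimics. All 3 intervals held 1.

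SIN3A (ENSG00000169375, chr15:75369379-75455842, minus strand), a scaffold for histone deacetylases, was at 0.915 FPKM with the control RNA, 0.783 with miR-1, 0.792 with miR-122 and 0.884 in the miR-124 library, from 524, 640, 403 and 494 reads. Its ratio was 0.856 (0.761 to 0.963) for miR-1, 0.865 (0.758 to 0.987) for miR-122 and 0.966 (0.852 to 1.09) for miR-124. The miR-124 library was the closest to the control RNA. SIN3A shares 884 bases with an antisense long noncoding RNA that had 265 reads.

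EHMT2, also called G9a, was at 8.11 FPKM with the control RNA, 7.23 with miR-1, 8.14 with miR-122 and 9.21 in the miR-124 library, from 963, 1225, 859 and 1068 reads. The miR-1 library was the lowest and the miR-124 library the highest. Its ratio was 0.891 (0.819 to 0.971) for miR-1, 1.00 (0.914 to 1.10) for miR-122 and 1.14 (1.04 to 1.24) for miR-124, and the miR-124 library was 1.27-fold (1.17 to 1.38) above that of miR-1. With a trend with gene features subtracted, its miR-124 ratio was 0.932, and 29.4% of genes lay below it. EHMT2 holds the miR-1 site shown above. It shares 4446 bases with the antisense gene EHMT2-AS1, which had 445 reads, so that reads in the shared part cannot be told apart.

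The ratios went with the base composition of the 3′ UTR, in all tested genes and in these 10. Across tested genes, the log2 ratio to the control RNA correlated with 3′ UTR GC content with a Pearson's r of 0.611 for miR-124 (11193 genes), 0.341 for miR-122 (11194 genes) and 0.240 for miR-1 (11193 genes). The genes of 1 comparison share the same libraries, so they are not independent points, and no p is given. Over the 10 genes, r was 0.728 for miR-124, 0.614 for miR-122 and 0.483 for miR-1. The 3′ UTRs of CTDSP1 (59.9% GC), EHMT2 (58.5%) and RCOR2 (57.2%) were the richest of the 10 in GC, and that of RCOR3 (30.7%) was the poorest, where the median of tested genes was 42.7%. The 3 GC-rich genes were the only ones of the 10 above a ratio of 1 with miR-124, and the same held with miR-122, where EHMT2 was at 1.00. With miR-1, 2 of these 3 were above 1, CTDSP1 and RCOR2, and so was KDM1A, whose 3′ UTR has 37.8% GC.

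A trend of the log2 ratio with 4 features of a gene, its span, its reads, its 3′ UTR length and its 3′ UTR GC content, fitted over the tested genes, took up 45.5% of the variance for miR-124, 18.4% for miR-122 and 19.8% for miR-1. With this trend subtracted, the miR-124 ratio of CTDSP1 went from 1.08 to 0.907, and 22.4% of genes then lay below it instead of 70.3%. That of REST went from 0.802 to 0.962. The miR-124 ratios of EHMT2 (1.14 to 0.932), KDM1A (0.942 to 1.08) and SIN3A (0.966 to 1.15) also crossed 1. The miR-124 ratio of RCOR2 remained the highest of the 10 at 1.60, above 99.6% of genes, and that of RCOR3 the lowest at 0.777, with 4.22% of genes below it. The miR-122 ratio of CTDSPL was 0.621 after the subtraction, with 0.563% of genes below it, and that of REST was 0.779. For miR-1, REST was at 0.929 and EHMT2 at 0.798 after the subtraction, so that EHMT2 and not REST was the 1 lower gene. Of the 10 genes, 1 was then lower and none higher with miR-1, 2 lower and 1 higher with miR-122, and 1 lower and 1 higher with miR-124. Over all genes with a fitted trend, 9.86% were lower and 9.26% higher with miR-1, 7.7% and 7.24% with miR-122, and 5.84% and 5.7% with miR-124. Tested genes with at least 3 miR-124 sites had a median miR-124 ratio of 0.864 before the subtraction (248 genes), and their median log2 ratio was 0.00 after it. Longer 3′ UTRs can hold more sites, and the trend includes 3′ UTR length and was fitted over genes with sites as well. Medians after the subtraction therefore do not show whether sites had an effect, here or in the groups with sites above. The part of GC content in the ratios of single genes was not tested.

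Further proteins of REST complexes were more often lower than higher with each mimic before the trend was subtracted, as were all genes compared. After the subtraction this did not hold for these proteins with miR-1 and miR-124. Of 32 such genes, all of them with at least 200 reads, 8 were lower and 1 higher with miR-1, 5 lower and 1 higher with miR-122, and 4 lower and 3 higher with miR-124. The shares of all genes compared were 18.3% lower and 7.43% higher, 12.3% and 7.9%, and 16.3% and 10.3% in the same order. Their median log2 ratio was −0.19 with miR-1, −0.07 with miR-122 and −0.06 in the miR-124 library. With the trend subtracted, the counts were 1 lower and 2 higher for miR-1, 3 and 2 for miR-122, and 0 and 2 for miR-124, beside shares of 9.86% and 9.26%, 7.7% and 7.24%, and 5.84% and 5.7% over all genes. The gene farthest from the control RNA in a single mimic was BTRC, the adaptor of the ubiquitin ligase that marks REST for degradation, at 0.589 (0.470 to 0.734) with miR-122. HMG20B, a subunit of the CoREST complex, was at 1.35 (1.21 to 1.5) with miR-124, and at 1.06 with the trend subtracted. ING2, a histone reader of the SIN3A complex, was at 0.795 (0.520 to 1.21) with miR-122 and at 1.36 (0.955 to 1.95) with miR-124, and both intervals held 1. Chosen after their values were seen, the other genes in the smaller groups were ZMYM2, ZNF217 and SAP130 as lower with miR-122, ARID4A, ARID4B, ZMYM2 and ZNF217 as lower with miR-124, WIZ as higher with miR-122 and miR-124, and BRMS1 as higher with miR-1.

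Among 8 further CTD phosphatases, relatives and cofactors and POLR2A, the subunit that carries the polymerase tail, 2 were lower and 1 higher with miR-1, none was past either limit with miR-122, and 1 was lower with miR-124. Among all genes the shares lower and higher were 18.3% and 7.43% with miR-1, 12.3% and 7.9% with miR-122, and 16.3% and 10.3% with miR-124. The 4 genes past a limit were CTDSPL2 at 0.747 (0.639 to 0.874) and POLR2A at 0.798 (0.743 to 0.856) with miR-1, SSU72 at 1.37 (1.27 to 1.48) with miR-1, and RPAP2 at 0.756 (0.615 to 0.928) with miR-124. CTDSPL2, SSU72 and RPAP2 were named after their values were seen. With the trend subtracted, CTDSPL2 was at 0.888 and RPAP2 at 0.905, both inside the limits, and SSU72 was at 1.41. Of the 8 genes with a fitted trend, none was then lower and 1 higher with miR-1, 1 lower with miR-122 and none past a limit with miR-124, where the shares of all genes were 9.86% and 9.26%, 7.7% and 7.24%, and 5.84% and 5.7%. POLR2A was at 0.832 (0.768 to 0.901) with miR-122 and 0.898 (0.833 to 0.969) with miR-124. The median log2 ratio of the 9 genes was 0.15 with miR-1, −0.14 with miR-122 and −0.04 in the miR-124 library.

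Genes that REST is known to silence were mostly at very low levels. Of 54 such genes, 11 had at least 200 reads, and genes at 0 in all 4 libraries included STMN2, NEUROD1, INA and CRH. Of the 11, 5 were lower and none higher with miR-1, 1 was lower and 3 higher with miR-122, and 2 were lower and 5 higher with miR-124. The shares of all genes were 18.3% lower and 7.43% higher, 12.3% and 7.9%, and 16.3% and 10.3%. The median log2 ratio of the 11 was −0.31, −0.01 and 0.12 in the same order, and the counts with the trend subtracted were 3 and 0, 2 and 1, and 1 and 3, beside 9.86% and 9.26%, 7.7% and 7.24%, and 5.84% and 5.7% of all genes. With miR-124 the higher genes included GRIN1, a glutamate receptor subunit, at 1.60 (1.245 to 2.06), and CPLX1, a regulator of synaptic vesicle fusion, at 1.54 (1.14 to 2.08), together with MAPK8IP2 and STMN3, which were named after their values were seen. With the trend subtracted, GRIN1 was at 1.26 and CPLX1 at 1.28, while STMN3 at 1.05 and MAPK8IP2 at 1.24 were inside the limits. GAD1, which makes the transmitter GABA, was at 0.673 (0.449 to 0.999) with miR-124.

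With miR-1 the lowest REST target genes were L1CAM, a neuronal adhesion molecule, at 0.537 (0.376 to 0.764), and BDNF, a neurotrophin, at 0.592 (0.451 to 0.775). The other 3 lower ones were SYT7, SYT1 and CPLX1, named after their values were seen. With miR-122, the synaptic calcium sensor SYT1 was at 1.5 (1.02 to 2.23) and GRIN1 at 0.750 (0.546 to 1.02), while STMN3 and MAPK8IP2 were the other higher genes. With the trend subtracted, SYT1 at 1.72 and GRIN1 at 0.686 remained past a limit. STMN3 at 1.24 and MAPK8IP2 at 1.22 were then inside the limits. REST was below the control RNA with each of the 3 mimics, and the median log2 ratio of its 11 measured target genes was −0.31 with miR-1 and 0.12 with miR-124. With miR-122 that median was −0.01, beside −0.02 for all tested genes, and it was 0.06 with the trend subtracted.

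An exact form of the REST element was rare in the promoter windows, and other forms or places were not searched. It was searched on both strands, from 250 bases before to 50 after the start site in RefSeq promoters of GRCh38.p14, as AGCACC and GGACAG with 2 bases between them. It was found in 16 of 27305 promoters (0.0586%), in 1 of the 39 REST target genes with a promoter in that set (2.56%) and in none of the 8 of the 10 genes with one. The match was in SYN1, which coats synaptic vesicles, 230 bases before the start site, at chrX:47620066-47620095 on the minus strand, and is shown as the example of the element with its 2 parts in capitals.
SYN1 promoter match: ccagcttcAGCACCgcGGACAGtgccttcg
SYN1 had 29 reads over the 4 libraries, too few for its ratio to be compared.

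As a comparison from the same neuronal programme, 12 genes of the PTBP splicing factors, the splicing factor SRRM4 and the BAF chromatin remodelling subunits that are exchanged in neurons were followed, of which 9 had at least 200 reads. With miR-1, PTBP1, the repressor of neuronal splicing, was at 0.677 (0.647 to 0.709), and PTBP2, its neuronal relative, was at 1.31 (1.09 to 1.57). With miR-124, PTBP1 was at 1.05 (1.01 to 1.10) and PTBP2 at 0.862 (0.694 to 1.07). Of the 9 genes, 1 was lower and 1 higher with miR-1, 1 lower with miR-122 and 1 lower and 1 higher with miR-124. The shares of all genes were 18.3% lower and 7.43% higher with miR-1, 12.3% and 7.9% with miR-122, and 16.3% and 10.3% with miR-124. Named after their values were seen, the genes past a limit with miR-122 and miR-124 were SS18L1 at 0.785 (0.636 to 0.967) with miR-122, and PHF10 at 0.770 (0.685 to 0.865) and DPF1 at 1.26 (1.04 to 1.54) with miR-124. With the trend subtracted, SS18L1 was at 0.851, PHF10 at 0.904 and DPF1 at 1.04, so that none of the 9 was past a limit with miR-122 or miR-124, where 7.7% and 7.24%, and 5.84% and 5.7% of all genes were. With miR-1, 1 was lower and 2 higher, beside 9.86% and 9.26%. The miR-124 ratios of PTBP1 and PTBP2 both crossed 1 with the trend subtracted, to 0.946 and 1.10.

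The 3 ratios of a gene to the control RNA give it a profile, and the nearest profiles were sought among 6487 genes with at least 1000 reads by the Euclidean distance of the log2 ratios over the 3 mimics. Nearest to CTDSP1 were LTA4H at a distance of 0.02, DNAJB12 at 0.02 and OS9 at 0.03. LTA4H, for example, had a ratio of 1.09 with miR-124, 1.2 with miR-122 and 1.11 with miR-1. Nearest to REST were PRDM4 at 0.04, ADSS2 at 0.04 and PLEKHB2 at 0.04, with PRDM4 at 0.817, 0.68 and 0.80 in the same order. These distances are smaller than the counting error of CTDSP1 and REST themselves.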

How the data were processed

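RNA-seq of 4 libraries of 293T cells was analysed. The authors aligned the reads to GRCh38 and deposited FPKM values, of which there is 1 for each Ensembl gene in a library. The submitters' processing notes name CASAVA 1.8 and HISAT2 2.0.0, and the counting program, its strand setting and its annotation are not given in the sources used here. Whole reads were recovered from the deposited FPKM values with gene lengths from GENCODE release 44, and added up to 100.3% of each library's divisor. Of 12633 genes with at least 200 reads, 94.1% had a length within 10% of the gene span. A recovered count can be off by a whole factor where another length was used, as for CTDSP1, whose length of 7685 bases differs from its span of 8805. No columns of other samples were present.

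Ratios were taken without a pseudocount for genes above 0.004 FPKM in both libraries. Since each condition has 1 library, no test was made, and 95% Clopper-Pearson intervals on the reads stand for counting error only. Sequences came from RefSeq tables of GRCh38.p14 and from the GENCODE annotation on GRCh38. The 10 genes, the gene lists and the limits were chosen with earlier results of these data known, and the lists come from general knowledge of these complexes. From each list, the genes named were up to 2 lowest and 2 highest per mimic that were past the limit of 0.8 or its inverse against both the control RNA and the mean of the other mimics, plus POLR2A, PTBP1 and genes at 0. Alternatives were pseudocounts of 0.1 and 1 FPKM, the other mimics as reference, 2 scalings, a subtracted cubic trend, 1.5-fold, intervals, read filters and canonical transcripts. The steps were tested on simulated data. Python 3.11.15, numpy 2.4.6, pandas 2.3.3, scipy 1.17.1 and matplotlib 3.10.9 were used.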

Additional observations from a re-analysis of the deposited data

How the results depend on the processing

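Depth limits the 5 least abundant genes, whose intervals rest on 90 to 362 reads per library, and no replicate could be left out. No paired analysis was possible because there is only 1 library to a condition. The 1 gene lower with miR-1 (REST, at 0.798) was 0 under pseudocounts of 0.1 and 1, centring on the median gene, median-of-ratios scaling and 1.5-fold. With a pseudocount of 1, which outweighs FPKM values below 1, the counts lower with miR-122 and miR-124 were also 0, instead of 2 and 1. With the other mimics' mean in place of the control RNA, 1 gene was lower and 0 higher with miR-122, and at 1.5-fold the counts were likewise 1 and 0, instead of 2 and 1.

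The reference of the other mimics turned the ratio of REST with miR-1 to 1.07 and that of RCOR2 with miR-122 to 0.938, and gave miR-124 ratios of 1.08 for REST, 1.09 for RCOR1 and 0.937 for CTDSP1. Subtracting the trend gave 0.962 for REST and 0.907 for CTDSP1 with miR-124. The cause was not tested. For single genes and mimics beyond these, 140 of the values under an alternative stayed within the counting interval and 20 moved outside it. With the other mimics as reference, 11 moved and 14 stayed. With the trend subtracted, 6 moved and 21 stayed, and with the larger pseudocount 3 moved and 24 stayed. Centring on the median gene, median-of-ratios scaling and the smaller pseudocount moved none. The ratios thus depended most on the choice of the control RNA library as reference. A mean of at least 1 FPKM, which leaves fewer genes, gave 2, 2 and 3 REST complex partners past the limits with miR-1, miR-122 and miR-124 instead of 9, 6 and 7. It gave 0 CTD phosphatases instead of 1 with miR-124, 2 and 3 REST target genes with miR-1 and miR-124 instead of 5 and 7, and 1 and 0 PTBP and BAF genes with miR-1 and miR-122 instead of 2 and 1.

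With all genes above 0.004 FPKM, which adds genes of few reads, 20, 18 and 21 REST target genes and 4, 2 and 4 PTBP and BAF genes were past the limits. The shares of all genes were then 29.4% lower and 16.8% higher with miR-1, 21.5% lower and 17.1% higher with miR-122, and 19.0% higher with miR-124. With a mean of at least 1 FPKM, the shares higher were 12.5%, 13.4% and 16.8%. On canonical transcripts 1 of the 10 genes had a miR-122 site instead of 2.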
